A study of Mus musculus with 8 samples.

Results

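The TAM receptors Tyro3, Axl and Mertk are receptor tyrosine kinases, and Gas6 and protein S, the product of Pros1, are their ligands. All 5 genes are on the array, among 8252 genes that a probe set with a single symbol names, and they have 6 probe sets (a probe set is the group of short oligonucleotides that reads out one transcript). The set was chosen by measured values in part: Tyro3 was picked for its higher signal on the double knockout arrays than on both kinds of single knockout arrays, and the other 4 genes were taken with it as its family and ligands. The pattern of Tyro3 is therefore given as a description without a test, and tests are given for the other genes only.

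TAM ligands bridge cells. Their vitamin K-dependent, gamma-carboxylated end binds phosphatidylserine on dying cells, and the other end binds a TAM receptor on the cell that engulfs them. Gas6 binds each of the receptors, whereas protein S acts through Tyro3 and Mertk. In the testis, Sertoli cells use these receptors to clear apoptotic germ cells and the residual bodies that spermatids shed, and mice that lack all the receptors lose their germ cells.

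Total RNA from mouse testis was hybridised to 8 Affymetrix MG_U74Av2 arrays, 2 for each of 4 genotypes, to compare loss of telomerase with loss of Ku86. By the labels these were wild type (Ku86+/+ Terc+/+), Terc knockout (Ku86+/+ with Terc-/- of the third generation), Ku86 knockout (Ku86-/- Terc+/+) and double knockout (Ku86-/- with Terc-/- of the third generation). Terc is the RNA template of telomerase, and Ku86, encoded by Xrcc5, binds broken DNA ends. No source used here gives the strain, the age or the kind of allele. The scanner's records describe the material as germ cells rather than testis, list 3 pooled mice for the first double knockout array, give a different single animal for each of the other 7, and mark wild type replicate 1 as a repeat hybridisation.

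Signals are linear intensities in arbitrary units, and a value of 11.8, the 20th percentile of all values, was taken as a floor below which signals have no order. Median signals lay between 49.7 (wild type replicate 1) and 73.2 (Terc knockout replicate 2). The brighter Xrcc5 probe set read 259 to 458.8 on the 4 arrays labelled Ku86-/- and 11.1 to 75.6 on the others. This direction is opposite to the label, and its cause was not tested. The other Xrcc5 probe set read 0.4 to 3.4, under the floor on all arrays. Genotypes below are those of the labels, and every difference named for Ku86, wild type or double knockout depends on labels that this signal does not bear out. The arrays were scanned on 3 days. Day 1 held replicate 1 of the double knockout and of the Ku86 knockout, day 3 held wild type replicate 1, and day 2 held the remaining arrays.

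Promoter sequence is shown for both ligands, because Gas6 and Pros1 had the largest differences between double knockout and wild type of the genes tested. Pros1 entered the test only through its double knockout arrays, so this choice is not support for a change in it. These are the 250 bases before the transcription start in RefSeq, assembly GRCm38.p6, written 5′ to 3′ on the strand of the gene. Capitals mark GGGCGG or its reverse complement CCGCCC, the core of the GC box to which Sp1 family factors bind. The Gas6 window is chr8:13494536-13494785 on the minus strand and the Pros1 window is chr16:62854057-62854306 on the plus strand.
Gas6: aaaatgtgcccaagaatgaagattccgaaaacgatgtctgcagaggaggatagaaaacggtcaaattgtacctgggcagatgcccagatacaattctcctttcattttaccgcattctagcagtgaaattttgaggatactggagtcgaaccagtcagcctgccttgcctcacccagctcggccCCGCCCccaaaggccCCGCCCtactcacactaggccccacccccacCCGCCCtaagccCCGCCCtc
Pros1: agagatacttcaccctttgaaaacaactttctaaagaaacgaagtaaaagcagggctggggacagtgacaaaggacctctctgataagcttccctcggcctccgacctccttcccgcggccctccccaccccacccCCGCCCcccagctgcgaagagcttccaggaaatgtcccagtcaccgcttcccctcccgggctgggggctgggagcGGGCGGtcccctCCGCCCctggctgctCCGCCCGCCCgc

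Gas6 held 4 matches and Pros1 5, of which 2 overlap. The same windows of Tyro3 and Mertk held 3 each and that of Axl held 1, so all 5 promoters had at least 1, as did 32.7% of 32851 promoter windows in the table. At least 4 matches were found in 4.09% of those windows and at least 5 in 1.93%. None of the members' windows held TATAAA (12.4% of all windows), CCAAT (33.8%), CACGTG (6.02%) or TGACGTCA (1.55%), each searched on both strands. Their GC content ran from 54.8% for Gas6 to 73.2% for Tyro3, against a median of 52.4% over all windows. A match describes the letters and not a bound site. The genes lie on chromosomes 2 (Tyro3 and Mertk), 7 (Axl), 8 (Gas6) and 16 (Pros1), and none shares a chromosome with Xrcc5 (chromosome 1) or Terc (chromosome 3).

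**Figure D1:**
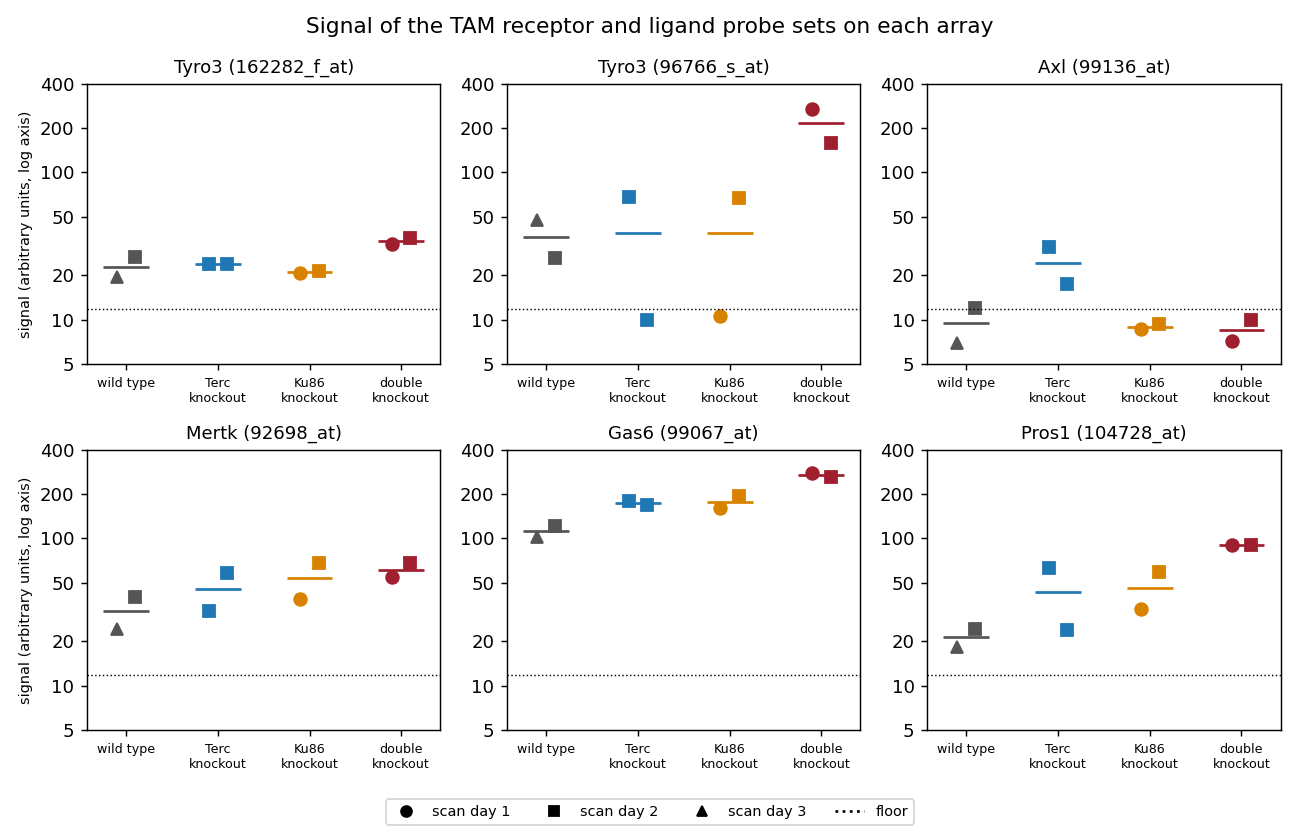
Signal of each of the 6 probe sets (arbitrary units, log axis) on each array by genotype; horizontal bars are the group means, symbols give the scan day and the dotted line is the floor of 11.8. Gas6 and Pros1 read highest on both double knockout arrays, Axl lies near the floor outside the Terc knockout, and the main Tyro3 probe set spreads widely within each single knockout.

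Among the ligands, Gas6 had the most even pattern of the set. It read 102.2 and 121.1 in wild type, 179.7 and 168.1 in the Terc knockout, 161.3 and 193.8 in the Ku86 knockout, and 276.7 and 259.6 in the double knockout. Both wild type arrays lay below all 6 others and both double knockout arrays above all 6 others, while the single knockouts overlapped each other. The group means were 112 ± 13.4, 174 ± 8.2, 178 ± 23 and 268 ± 12.1 (SD, n = 2 each).

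Pros1 followed the same order of means with wider gaps between replicates. It read 18.4 and 24.3 in wild type, 63.4 and 23.8 in the Terc knockout, 33.4 and 58.9 in the Ku86 knockout, and 89.9 and 89.8 in the double knockout. Both double knockout arrays again stood above all others, whereas Terc knockout replicate 2 fell within the wild type values. The Terc knockout replicates differed 2.66-fold and the Ku86 knockout replicates 1.76-fold, against 1.001-fold in the double knockout.

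Of the receptors, Mertk, which drives engulfment by Sertoli cells and macrophages, had the smallest difference between double knockout and wild type among the 3 tested genes. It read 24.2 and 39.8 in wild type, 32 and 58 in the Terc knockout, 39 and 68.1 in the Ku86 knockout, and 54.6 and 68.3 in the double knockout. The double knockout arrays lay above both wild type arrays, and every other pair of genotypes overlapped. Replicates within a genotype differed by 1.25-fold to 1.81-fold.

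Axl, the receptor that binds Gas6 but not protein S, was close to the floor. Its signal was 7 and 12.1 in wild type, 8.7 and 9.3 in the Ku86 knockout, and 7.2 and 10 in the double knockout, with 5 of 8 arrays at or under the floor. The Terc knockout arrays read 31.3 and 17.5, above all 6 others, as did those of 3.85% of the tested probe sets, among which Axl is not counted. Axl was left out of the test because its mean on the log2 scale corresponded to 14, under the minimum of 38.1, and without that minimum its log2 difference between Terc knockout and wild type was 0.97 ± 0.268 (SE, limma adjusted p = 0.649).

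Tyro3 has a pair of probe sets, and both were highest on the double knockout arrays. The brighter one read 47.2 and 26.2 in wild type, 68.3 and 9.9 in the Terc knockout, 10.7 and 67.5 in the Ku86 knockout, and 269.9 and 159.4 in the double knockout. The lowest double knockout array was 2.33 times the highest of the other 6. One array of each single knockout lay under the floor and the other above both wild type arrays, so the replicates of each single knockout lay far apart. The dimmer one read 19.4 and 26.5, 23.9 and 23.8, 20.7 and 21.4, and 32.8 and 35.9 in the same order, and its mean was too low for the test.

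The log2 difference of the brighter Tyro3 probe set was 2.87 from the Terc knockout and 2.88 from the Ku86 knockout, values which chose this gene. Without Terc knockout replicate 2 the former was 1.60, and without Ku86 knockout replicate 1 the latter was 1.62. Within scan day 1 the double knockout array read 269.9 beside 10.7 for the Ku86 knockout, and within day 2 the readings were 159.4 and 67.5. For the single knockouts against wild type the differences were -0.31 and -0.32, and their sign turned when those same arrays were left out (0.96 and 0.94) or when wild type replicate 1 was (0.12 and 0.11). The suffixes of these probe sets (_s_at and _f_at) are those the maker gives to sets that can match more than 1 transcript.

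Linear models were fitted to all tested probe sets, and 4 of the 6 member probe sets passed the minimum on mean signal: the brighter one of Tyro3 and those of Mertk, Gas6 and Pros1. Pros1 and Tyro3 passed only through their double knockout arrays. Their means corresponded to 42.5 and 49.2 over all arrays and to 33.2 and 30.4 without those, under the minimum of 38.1, so the counts below describe the 3 tested genes and are not support for a shared change.

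Against wild type, the double knockout showed the largest differences of these genes. Gas6 was 2.41-fold higher, with a log2 difference of 1.27 ± 0.258 (SE, limma adjusted p = 0.21). Pros1 was 4.25-fold higher, at 2.09 ± 0.597 (SE, limma adjusted p = 0.375), and Mertk differed by 0.98 ± 0.551 (SE, limma adjusted p = 0.68), or by 0.62 without wild type replicate 1. By limma at an adjusted p under 0.05, 0 of 3 were called, beside 0.0275% of 7282 tested probe sets. Gas6 and Pros1 were under an unadjusted p of 0.05, as were 8.6% of all tested. Because Pros1 entered the test only through its double knockout arrays, its p, non-overlap and rank in comparisons that include them are description only.

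The groups did not overlap for any of the 3 genes in this comparison, with the double knockout higher, and 23.2% of all tested probe sets showed that. Both double knockout arrays lay above all 6 others for Gas6 and Pros1 (5.26% of tested probe sets), and both wild type arrays lay below all 6 others for Gas6 (7.62%). The full step, with wild type lowest, both single knockouts between and the double knockout highest without overlap, was met by Gas6 and by 0.906% of tested probe sets. Larger differences between double knockout and wild type than that of Gas6 were found for 173 probe sets, or 2.38%, and larger ones than that of Pros1 for 15.

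The single knockouts were set against wild type to ask about each loss alone. In the Terc knockout Gas6 differed by 0.64 ± 0.258 (SE, limma adjusted p = 0.672), Pros1 by 0.88 ± 0.597 and Mertk by 0.47 ± 0.551. In the Ku86 knockout Gas6 differed by 0.67 ± 0.258 (SE, limma adjusted p = 0.802), Pros1 by 1.07 ± 0.597 and Mertk by 0.73 ± 0.551. Limma called 0 of 3 in either comparison, beside 0.0275% and 0.0412% of tested probe sets, and only Gas6 was under an unadjusted p of 0.05 (7.06% and 5.9% of all tested). Both knockout arrays stood above both wild type arrays for 1 gene of 3, Gas6, in the Terc knockout (25.5% of tested probe sets) and for Gas6 and Pros1 in the Ku86 knockout (24.4%). Single arrays decided some of these sizes: Pros1 in the Terc knockout was 0.17 without Terc knockout replicate 1 and 1.58 without replicate 2, and Mertk there was 0.04 without Terc knockout replicate 2, 0.90 without replicate 1, 0.11 without wild type replicate 1 and 0.83 without wild type replicate 2. In the Ku86 knockout, Mertk was 0.33 and Pros1 0.66 without Ku86 knockout replicate 2, and Mertk was 1.13 without Ku86 knockout replicate 1 and 0.37 without wild type replicate 1. Median centring brought Gas6 to 0.31 in the Terc knockout and 0.44 in the Ku86 knockout, and quantile normalization brought Mertk in the Terc knockout to 0.09. These comparisons share the wild type arrays.

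The double knockout was also set against each single knockout. Gas6 differed by 0.62 ± 0.258 from the Terc knockout and by 0.6 ± 0.258 from the Ku86 knockout (SE, limma adjusted p = 0.99 and adjusted p = 0.9995). Pros1 differed by 1.21 ± 0.597 and 1.02 ± 0.597, and Mertk by 0.5 ± 0.551 and 0.24 ± 0.551. Against the Terc knockout, Pros1 was 0.50 without Terc knockout replicate 2 and 1.92 without replicate 1, and Mertk 0.93 and 0.07. Against the Ku86 knockout, Pros1 was 0.61 and Mertk -0.16 without Ku86 knockout replicate 1, and Mertk 0.65 without replicate 2, 0.41 without double knockout replicate 1 and 0.08 without double knockout replicate 2. Limma called 0 of 3 in both, beside 0.0% of all tested probe sets, with Gas6 under an unadjusted p of 0.05 each time (4.26% and 3.36% of all tested). Groups did not overlap for Gas6 and Pros1 in both comparisons, as for 15.4% and 15.5% of tested probe sets. Within scan day 1, double knockout over Ku86 knockout was 1.72-fold for Gas6, 2.69-fold for Pros1 and 1.4-fold for Mertk, and within day 2 it was 1.34-fold, 1.52-fold and 1.003-fold.

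**Figure D2:**
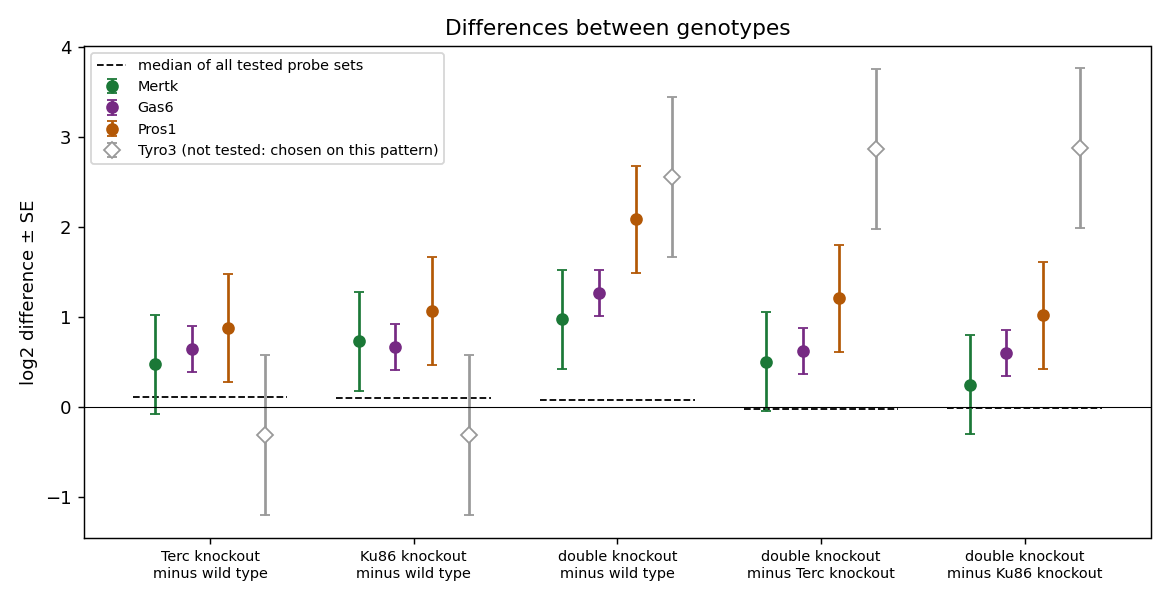
Log2 differences between genotypes with their standard errors from the limma fit to 8 arrays (2 per genotype); dashed lines are the median of all 7282 tested probe sets. Mertk, Gas6 and Pros1 lie above 0 in each of the 5 comparisons, from 0.24 for Mertk between double and Ku86 knockout to 2.09 for Pros1 between double knockout and wild type, and Tyro3 (open diamonds) is shown as a description only.

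Averaged over the other genotype, Terc loss gave log2 differences of 0.62 ± 0.182 for Gas6, 0.95 ± 0.422 for Pros1 and 0.36 ± 0.389 for Mertk (SE, 4 arrays against 4). Ku86 loss gave 0.65 ± 0.182, 1.14 ± 0.422 and 0.62 ± 0.389. Limma called 0 of 3 for either loss, beside 0.0137% and 0.0% of tested probe sets, and Gas6 and Pros1 were under an unadjusted p of 0.05 for both (5.29% and 5.15% of all tested). The interaction, which asks whether the double knockout departs from the sum of both single effects, was -0.04 ± 0.364 for Gas6, 0.14 ± 0.844 for Pros1 and -0.23 ± 0.779 for Mertk (SE, limma adjusted p from 0.967 to 0.983). None of the 3 tested genes passed there, adjusted or not, and 0.0% of tested probe sets were called, with 5.04% under an unadjusted p of 0.05. The interaction of the brighter Tyro3 probe set, 3.19 ± 1.26 (SE), is description only, because Tyro3 was picked for its rise in the double knockout. Signs of the interaction turned with the scaling for Gas6 and Mertk.

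Genes that act with the TAM system were described from lists by their brightest tested probe set, beside a median log2 difference of 0.08 over all 5530 genes between double knockout and wild type. Of 34 genes listed for engulfment of apoptotic cells, 16 were tested, 0 were called by limma in either direction, and 11 lay above 0, with a median of 0.56, while 58.8% of all genes lay above 0. Itgav, the integrin subunit that binds the bridging protein Mfge8, differed by 1.38 ± 0.512 (SE), and its partner Itgb5 by 1.06 ± 0.476. Cd47, the signal that protects cells from being engulfed, differed by 1.2 ± 0.534, and Mfge8 by 0.6 ± 0.232. Other genes of the list went the other way, with Bcar1 at -0.999 ± 0.415 and Rhog at -0.918 ± 0.588. The lowest limma adjusted p in the list was 0.497, and 4 of its tested genes are also macrophage markers.

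Genes of signalling downstream of the receptors lay near the median of all genes. Of 26 listed, 14 were tested and 7 lay above 0, with a median of -0.01 and 0 called by limma. Nfkbia, an inhibitor of NF-kappa-B, differed by 0.77 ± 0.521 (SE), the kinase Akt2 by 0.73 ± 0.343 and the kinase Src by -0.69 ± 0.537. Akt2 read 257.2 and 122.7 in wild type and 342.4 and 253.1 in the double knockout, which overlapped. The carboxylation and ligand partner list had 6 tested genes of 18, 4 of them above 0 with a median of 0.47 and 0 called. Mgp was tested only through its double knockout arrays, and without it 3 of 5 lay above 0, with a median of 0.39. Mgp, itself a vitamin K-dependent matrix protein, differed by 1.85 ± 0.659 (SE), Calu, a calcium-binding inhibitor of the carboxylase system, by 1.03 ± 0.344, and Vkorc1, which recycles vitamin K, by 0.55 ± 0.319. Median-centring of the arrays moved the median of all genes by -0.27 here, and quantile normalization by -0.09. Relative to all genes the 3 lists lay at 0.48, -0.09 and 0.4 as deposited, and at 0.34, -0.12 and 0.35 after quantile normalization.

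Markers of the cell types of the testis were set beside the members. The 16 tested of 20 listed Sertoli cell markers had a summed signal of 2764 to 2870 in wild type, 3762 to 4274 in the Terc knockout, 3071 to 4571 in the Ku86 knockout and 5156 to 6134 in the double knockout. Wild type was lowest and the double knockout highest, as for Gas6, with the single knockouts overlapping each other. Pros1 had this order by group means only, because Terc knockout replicate 2 lay within its wild type values. A sum of signals is weighted to bright genes, such as Clu at 396.8 to 1409.6 over all arrays, while Amh read 29.6 to 49.4. In the double knockout 15 of the 16 lay above 0, with a median log2 difference of 0.8 and 0 called by limma. Differences were small for some of them, with Gata1 and Gdnf at 0.21 each, Fshr at 0.04 and Amh at -0.006. The largest differences were those of the lysosomal protease Ctsl (1.84 ± 0.422, SE), the tight junction protein Cldn11 (1.8 ± 0.384) and Kitl, the ligand of the germ cell receptor Kit (1.75 ± 0.611). Kitl passed the minimum only through its double knockout arrays, and without it 14 of 15 lay above 0, with a median of 0.71. Peritubular and matrix markers, 14 tested of 17 listed, summed to 2003 to 2219 in wild type and 3321 to 3860 in the double knockout. The sums were 2824 to 3245.5 in the Terc knockout and 2577 to 3165 in the Ku86 knockout, the same order as for the Sertoli cell markers. Their median log2 difference in the double knockout was 0.85, with 0 called. Smooth muscle myosin Myh11 differed by 3.19 ± 0.555 (SE), Acta2 by 2.16 ± 0.417 and the protease inhibitor Timp3 by 2.01 ± 0.65. Both wild type arrays of Myh11 lay under the floor (4.6 and 9.8), so the size of its difference depends on the floor. Timp3 read 39.6 and 9.9 in wild type, and its double knockout arrays (52.9 and 143.7) overlapped both single knockouts. Acta2 in the double knockout (296 and 500.2) overlapped the Terc knockout (297.2 and 121.9). Myh11 likewise passed only through its double knockout arrays, and the median without it was 0.78.

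Leydig cell markers, 7 tested of 10 listed, summed to 2579 to 3124 in wild type and 2711 to 3631 in the double knockout, which overlapped. Their median log2 difference was 0.33, and Insl3, Cyp11a1 and Cyp17a1 differed by 0.77 ± 0.465, 0.64 ± 0.477 and 0.51 ± 0.325 (SE). For Cyp11a1 and Cyp17a1 only double knockout replicate 1 lay above wild type (376 and 1041.7), while replicate 2 lay within it (153 and 535.2). Macrophage markers, 6 tested of 13, summed to 781.6 to 784.5 and 733.8 to 848.7, with a median log2 difference of 0.02 and values of -0.12 for Csf1r, 0.11 for C1qc and 0.1 for Cd68. Spermatid markers, 16 of 16, summed to 91330 to 100218 and 86218 to 94850, with a median of -0.06 and 4 of the 16 above 0. The largest differences were 0.69 for Prm2, -0.42 for Tssk1 and -0.34 for Tssk2. Prm2 read 85.5 and 45.6 in wild type and 65.1 and 155.4 in the double knockout, which overlapped. Its signal was far below that of the other protamine, Prm1, at 13783.2 to 18506.5 over all arrays. The 5 tested spermatocyte markers of 10 listed had a median of 0.005, with -0.3 for Pttg1, 0.2 for Sycp1 and 0.18 for Hspa2. Of these cell type markers on the array, Sycp3 alone was at or under the floor on all 8 arrays. The part of cell composition in the TAM signals was not tested. In RNA from mixed cells, a different number of cells and a different amount of RNA per cell cannot be told apart. Whether the material was whole testis, as labelled, or germ cells, as in the scanner's records, is not settled here.

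**Figure D3:**
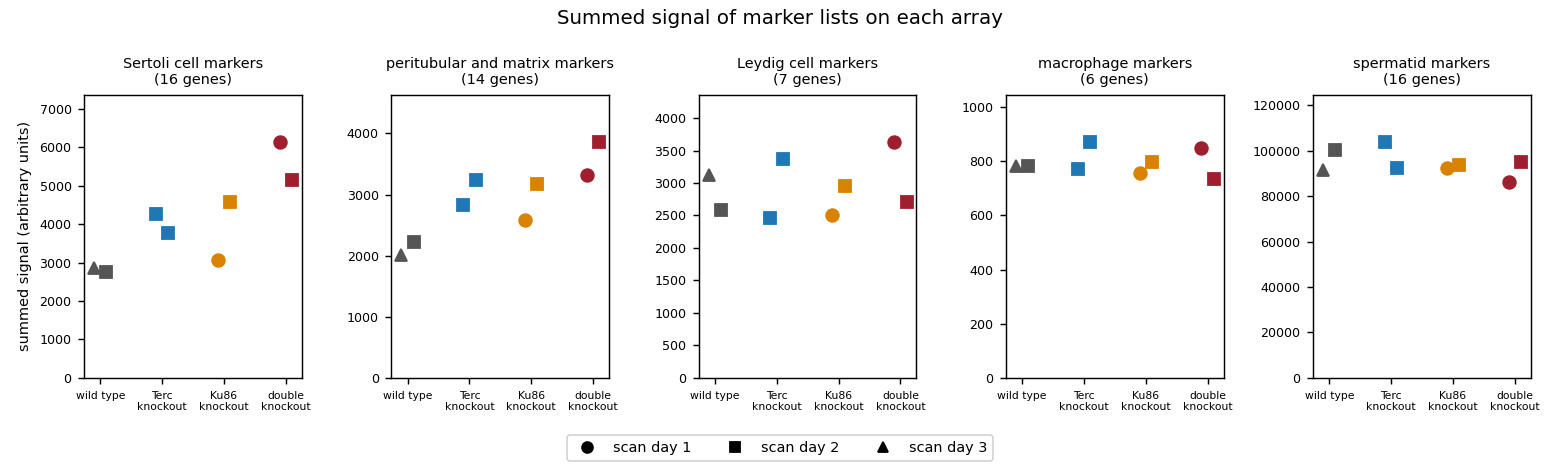
Summed signal (arbitrary units) of the tested genes of 5 marker lists on each array by genotype; symbols give the scan day. Sertoli cell markers run from 2764 in wild type to 6134 in the double knockout. Peritubular and matrix markers likewise run from 2003 to 3860, while macrophage markers stay between 733.8 and 871.5 on all arrays.

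Profiles closest to each gene were found by the root mean square (RMS) difference of log2 signal over the 8 arrays, after each probe set was centred on its own mean, among 6536 other named probe sets. Closest to Tyro3 were Mgp (RMS difference of 0.66), the chromatin insulator gene Ctcf (0.83), the inhibin subunit Inha (0.87), and the cathepsins Ctsl (0.88) and Ctsf (0.9), against 1.53 for the spread of Tyro3 about its own mean. Closest to Pros1 were Fgl2 (0.2), Ctsl (0.24) and smooth muscle actin Acta2 (0.25), with a spread of 0.85 for Pros1 itself. Inha and Ctsl are Sertoli cell markers of the list above, and Acta2 is on the peritubular list. Mgp is on the carboxylation and ligand partner list, and Ctcf, Ctsf and Fgl2 are on none of the lists. Tyro3 was picked for its rise in the double knockout, and Mgp and Pros1 passed the minimum only through those arrays. Profiles close to Tyro3 are therefore high there by that choice, and the matches are not support for a cell type.

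For Gas6 the closest were the kinesin heavy chain Kif5b, Spin1 and Morf4l2 (each at 0.15, with a spread of 0.46), and for Mertk they were Etl4, Phlda3 and Asl (0.17, 0.17 and 0.2, with a spread of 0.51). Among the members themselves, Gas6 ranked 47th for Pros1, but Pros1 ranked 2080th for Gas6, and their RMS difference of 0.47 was no smaller than the spread of Gas6. Pros1 ranked 17th for Tyro3, but Tyro3 ranked 5255th for Pros1. These are descriptions over arrays that share scan days and genotypes.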

How the data were processed

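The authors deposited probe set intensities on a linear scale for 8 arrays; from the values, each array had been scaled to one trimmed mean (199.5 to 199.9 between the 2nd and 98th percentiles), while the software used for this was not given in any source used here. Per the file headers of the scanner records, 15 micrograms of cRNA were used per array; these deposited records, other text, also gave scan day and chip lot, which changed together. Values under 11.8 (pooled 20th percentile) were raised to that floor before taking log2. Of 12488 probe sets, 66 controls and those with a mean log2 under that of 38.1 (40th percentile) were left out, and 7282 were tested across all probe sets with limma 3.58.1 in R 4.3.3 (lmFit, eBayes with trend, 1 mean per genotype, Benjamini-Hochberg over each comparison, two-sided, called at an adjusted p under 0.05). The number of arrays limits the precision. The steps were tested on simulated data. Gene symbols came from the platform's annotation, in which 10855 probe sets have 1 symbol, 396 several and 1237 none. Named genes were every member, the 5 closest profiles to Tyro3 and 3 to each other gene, and the 3 largest differences per list. Besides these, Mfge8, Bcar1, Rhog, Clu, Gata1, Gdnf, Fshr and Amh were named after their values were seen. Mfge8 was named as a bridging ligand like Gas6, and Bcar1 and Rhog as genes of its list with lower signal in the double knockout. Clu was named as a bright Sertoli cell marker, and Gata1, Gdnf, Fshr and Amh as Sertoli cell markers with small differences. Members and lists were chosen with earlier results of these data known. No probe positions or genome were used.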

Additional observations from a re-analysis of the deposited data

How the results depend on the processing

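The count of called members was 0 in all 8 comparisons and stayed 0 in each of the 165 alternative values. These covered scaling, floor, filter, variance trend, blocks, arrays in the fit and a threshold of 0.1. In the main fit only 0.0% to 0.0412% of all tested probe sets were called per comparison. A count of 0 among so few genes therefore says little about them. Gas6 in double knockout against wild type kept its direction in 20 of 20 alternatives, with log2 differences from 1.00 to 1.27, from 1.15 to 1.39 with arrays left out, and adjusted p from 0.146 to 0.796. Pros1 there ran from 1.24 to 2.09, and from 1.89 to 2.29 with arrays left out, in 19 of 19. The filter at the 60th percentile left no value for Mertk, Pros1 or Tyro3. The interaction turned sign for Gas6 after quantile normalization (0.13), median centring (0.26) and with scan day as a block (0.079), for Mertk in the same settings (0.098, 0.072 and 0.13), and for Pros1 within scan day 2 (-0.068). With arrays left out in turn it ran from -0.18 to 0.089 for Gas6, -0.66 to 0.20 for Mertk and -0.57 to 0.85 for Pros1, and Mertk in double against Ku86 knockout ran from -0.16 to 0.65. The causes were not tested. With the experiment number as a replicate block, 0 members were called, and Gas6 in double knockout against wild type had an adjusted p of 0.195. Deviations of same-numbered arrays correlated at 0.0126 to 0.254 over 6 pairs of genotypes, so the numbers were not taken as pairs. Arrays give no counts, and signals near the floor, as for Axl, limit what can be compared.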
